A study of Mus musculus with 18 samples.

Results

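The genes described here encode the channels through which proteins enter mitochondria and a family of carriers. Most of these carriers, but not all, move small molecules across the inner mitochondrial membrane. Members were chosen by symbol. They are all genes whose symbol starts with Tomm, Timm or Slc25a and that have at least 1 probe set annotated to no other gene. This gave 68 of the 18193 genes with such a probe set, namely 24 translocases (Tomm and Timm) and 44 carriers (Slc25a). Where a gene had several probe sets (143 in all), the one with the highest mean signal over all 18 arrays stood for it. A mean unlogged signal above 20 was required for a test, and 22 translocases and 38 carriers passed it. The 8 members below it were Tomm20l, Timm8a2, Slc25a2, Slc25a13, Slc25a31, Slc25a41, Slc25a48 and Slc25a54. Slc25a13, the aspartate and glutamate carrier best known from liver, ranged from 2.09 to 24.8.

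Nearly all mitochondrial proteins are made in the cytosol. Their precursors bind receptors of the TOM complex on the outer membrane, pass its channel, and are then handed to TIM23, which moves them into the matrix, or through the small Tim chaperones to TIM22, which inserts carriers into the inner membrane. The carriers in turn exchange ADP for ATP, phosphate, citrate, malate, glutamate and many cofactors between matrix and cytosol, and neurons rely on them for ATP at the synapse and for the handling of glutamate.

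Total RNA from the hippocampus of male C57BL/6J mice (labelled C57Bl/6) was measured on Affymetrix Mouse 430 2.0 arrays in 6 groups of 3 arrays, none of them carrying a genetic change. Mice began at 10 weeks of age. Ctrl mice were untreated. In the intermittent hypoxia treatment (IHT), cycles of 3 min lowered the inspired oxygen from 21% to 5% by 1 min of nitrogen and returned it by 2 min of room air. These cycles ran for 8 h daily. IH5D mice had 5 days of IHT, IH5DR2 mice had 5 days of IHT and then 64 h of normoxia, and IH28D mice had 28 days of IHT. Ctrl28 mice were kept for 28 days in normoxia, and 12 m mice were reared for 12 months without IHT. No label says if different mice gave the arrays of a group, so p-values measure only the spread between these arrays, which may be technical. Values per array are unlogged MAS5 signals, and changes are log2 differences with their standard error (SE) and a p of limma adjusted over all 11656 genes tested. A gene rose or fell where this p was below 0.05. Signals of different genes were not compared, since probe sets differ in how strongly they bind.

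Some arrays stood apart. On 12 m array 3 the 8 markers of hippocampal neurons had a mean log2 signal of 5.90, against 7.81 to 8.33 on the other 17 arrays. Its signal of Fibcd1, a marker of CA1 neurons, was 5.05 against 129 to 325, and its signal of Lamp5, a marker of neocortex, was 2019 against 258 to 438. The markers of this array thus go against its label as hippocampus, and results on 12 m are given with and without it. On Ctrl28 array 1 the signal at the 3′ end of the Actb and Gapdh transcripts exceeded that at the 5′ end by 2.39 on the log2 scale, against 0.82 and 0.97 on the other Ctrl28 arrays, 0.62 to 0.86 at 12 m and 0.33 to 0.54 elsewhere. A larger gap is a usual sign of degraded RNA. Of the 22 translocases, 9 had their highest signal of all arrays on Ctrl28 array 1, among them Tomm7 and the small Tim genes Timm8b, Timm10, Timm10b and Timm13. Ctrl array 2, with a gap of 0.34, also held the highest signal of 9 translocases. Of the 38 carriers, 14 were highest on Ctrl array 2 and 6 on Ctrl28 array 1. The share over all genes was not counted. The choroid plexus markers also varied between arrays, with a mean log2 signal of 5.44 to 8.98 in Ctrl and 3.79 to 5.04 at 12 m.

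The promoters of many translocases share the letters CCGGAAG, or CTTCCGG on the opposite strand, which ETS factors such as GABP are known to bind. The motif was one of 11 searched on both strands, and it was chosen for print after the matches were seen. Windows of 250 bases before to 50 bases after the transcription start (RefSeq, GRCm38.p6) were found for 55 members. A gene was counted if any of its windows held the letters. They occurred for 10 of 21 translocases (47.6%) and 7 of 34 carriers (20.6%). Of 9472 genes tested 19.3% held them, and of 27025 genes with a window 9.93%. The 10 include Timm8a2, which was below the minimum signal. Stretches of 4 translocases are shown because their genes moved in both directions at 12 m. The letters shown lie 47 bases before the start in Tomm22 and Timm23, 16 in Timm10 and 80 in Tomm70a, and capitals mark them. Not marked are matches 8 bases before the start in Tomm70a and, after it, at 5 in Tomm22, 10 in Timm23 and 13 in Timm10. The Tomm22 stretch also holds CCGGAAG, which overlaps the marked CTTCCGG and is not marked, since the search skipped overlapping matches. A gene can have several windows.
Tomm22, chr15:79670805-79670844, plus strand: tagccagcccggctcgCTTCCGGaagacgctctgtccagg
Timm23, chr14:32201915-32201954, minus strand: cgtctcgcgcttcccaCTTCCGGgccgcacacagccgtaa
Timm10, chr2:84826981-84827020, plus strand: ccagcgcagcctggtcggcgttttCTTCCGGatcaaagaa
Tomm70a, chr16:57121618-57121657, plus strand: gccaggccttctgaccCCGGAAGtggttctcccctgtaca
The first 3 of these genes fell at 12 m and Tomm70a rose, as described next. The core letters of the hypoxia response element, ACGTG, occurred for 7 of 21 translocases (33.3%) and 10 of 34 carriers (29.4%), against 29.8% of the genes tested. The E-box letters CACGTG, which contain them, occurred for 23.8% of translocases and 20.6% of carriers, against 11.9% of the genes tested. Shares of the remaining motifs searched are not given. A match says only that these letters are present.

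At 12 m, most subunits of the import machinery were lower than in Ctrl, but far fewer passed as lower against Ctrl28. In direction alone, 18 of 22 translocases were below 0 against Ctrl and 14 against Ctrl28, beside 61.7% and 52.7% of all genes. The median change against Ctrl28 was -0.26 for translocases and -0.03 for carriers, against -0.03 for all genes tested. Of the 22 translocases, 16 fell and 2 rose at 12 m, and 4 did not pass. Of all genes tested, 53.3% were called in this comparison, 31.6% lower and 21.7% higher. Of the 38 carriers, 16 fell and 5 rose. Against Ctrl28, the other untreated group, the 12 m arrays had 3 translocases that fell and 1 that rose and 4 carriers that fell and 1 that rose, while 16.3% of all genes were called, 8.3% lower and 8.04% higher. The channel gene Tomm40 was 1.08 higher on the log2 scale at 12 m than in Ctrl28 where it was 0.95 lower than in Ctrl, and Timm50 and Tomm40l, which fell against Ctrl, differed from Ctrl28 by 0.07 and 0.05. The median log2 change against Ctrl was -0.61 for translocases and -0.41 for carriers, against -0.23 for all genes tested. With each array centred on its median these were -0.73, -0.53 and -0.36. Without 12 m array 3, 13 translocases fell and 2 rose, and 15 carriers fell and 5 rose, while 28.4% of all genes were lower and 20.8% higher. In bulk tissue, fewer cells of a type and less RNA per cell cannot be told apart. The choroid plexus markers were lower at 12 m as given above, and their part in these results was not tested.

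**Figure D1:**
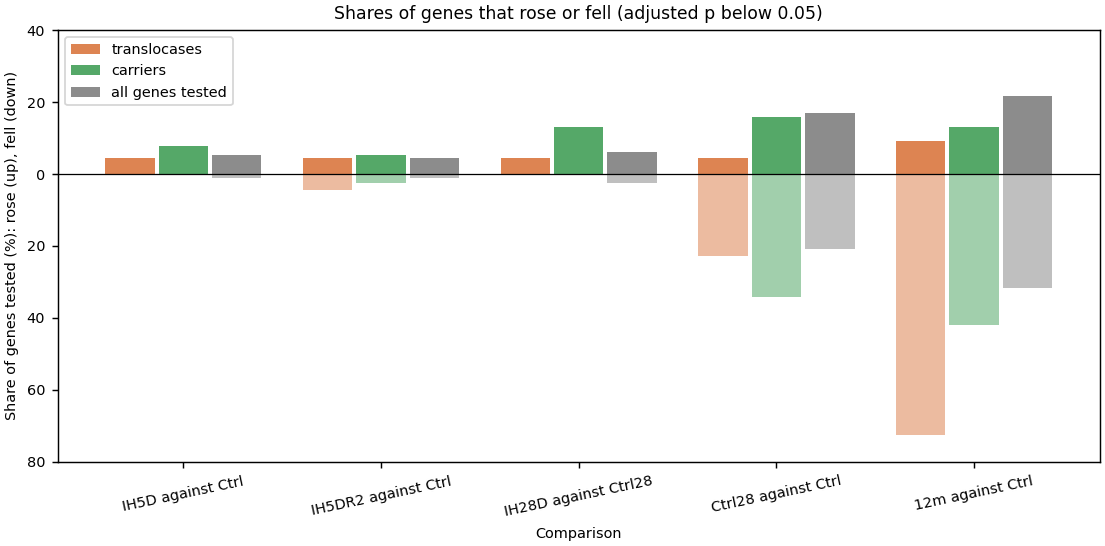
Share of genes tested (vertical axis, percent) that rose (bars above 0) or fell (pale bars below 0) in 5 comparisons (horizontal axis), for 22 translocases, 38 carriers and all 11656 genes. The tallest bar is that of the 16 of 22 translocases that fell at 12 m, against 31.6% of all genes.

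Tomm40, the channel of the outer membrane, had signals of 306, 314 and 308 in Ctrl and of 159, 146 and 177 at 12 m. The groups lay far apart, with little spread within Ctrl. Its log2 change was -0.95 (SE 0.16, adjusted p = 0.000171), a 1.93-fold lower signal. Tomm22, the central receptor that also organises the complex, had signals of 551, 697 and 658 in Ctrl and of 386, 350 and 362 at 12 m, and fell by 0.79 (SE 0.20, adjusted p = 0.00307). All 12 m arrays lay below all Ctrl arrays. A second, dimmer probe set of Tomm22 had a log2 change of 0.01, so its probe sets disagree.

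The 2 other receptors went opposite ways. Tomm20, which binds precursors with a presequence, had signals of 2039, 2699 and 2629 in Ctrl and of 2034, 1899 and 1771 at 12 m. The groups almost touched at the lowest Ctrl array, and the change was -0.36 (SE 0.14, adjusted p = 0.0339). It did not pass without 12 m array 3 (-0.31, adjusted p = 0.0991), nor without 12 m array 2 or Ctrl array 2 or 3 (-0.29 to -0.36), and with quantile normalization its change was -0.09. Tomm70a (Tomm70 in RefSeq), which receives the precursors of the carriers, had signals of 848, 631 and 719 in Ctrl and of 1182, 1226 and 1237 at 12 m. It rose by 0.74 (SE 0.17, adjusted p = 0.00229) with no overlap. The mean signals of its other 3 probe sets above 20 were also higher at 12 m than in Ctrl, at 191 against 61.6, 128 against 97.5 and 87.8 against 41.5.

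Tomm7, a small subunit that modulates assembly of the complex, had signals of 734, 893 and 960 in Ctrl and of 599, 583 and 544 at 12 m. These did not overlap, but the change of -0.58 did not pass. Tomm40l, the paralog of Tomm40, fell by 0.69 (SE 0.15, adjusted p = 0.00124) and Tomm34, a cytosolic helper of import, by 0.61 (SE 0.17, adjusted p = 0.00701).

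**Figure D2:**
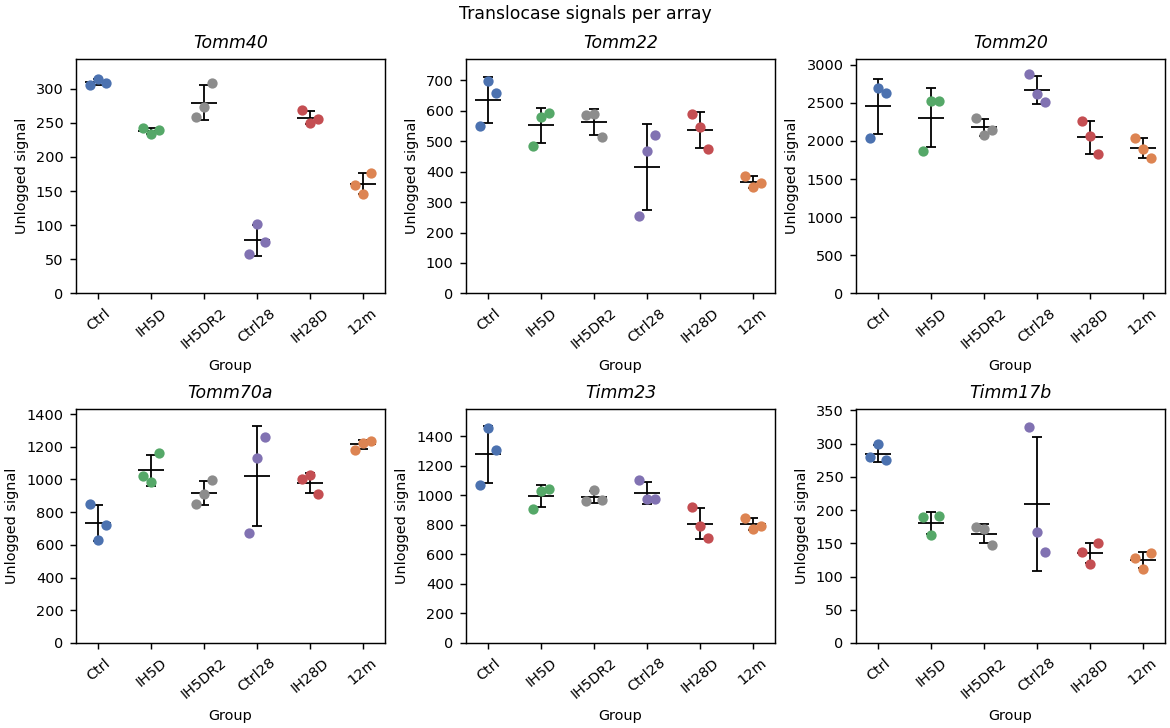
Unlogged signal (vertical axis) on each array (points) of 6 groups (horizontal axis) for 6 translocases, with the group mean (long bar) and SD (short bars, n = 3). Tomm40 was lowest in Ctrl28 (57.2 to 102), and Tomm70a lay above Ctrl at 12 m while Tomm40, Tomm22, Timm23 and Timm17b lay below.

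Of 5 subunits of the TIM23 complex, 4 fell and 1 rose at 12 m, beside 31.6% of all genes lower and 21.7% higher. Against Ctrl28 none of the 5 was called. Timm23, which forms the channel of the inner membrane, had signals of 1068, 1456 and 1307 in Ctrl and of 848, 769 and 791 at 12 m, and fell by 0.66 (SE 0.13, adjusted p = 0.000463). Timm17b, one of its partner subunits, had signals of 280, 300 and 275 in Ctrl and of 128, 112 and 136 at 12 m. Its fall of 1.19 (SE 0.22, adjusted p = 0.000367) was the largest of all 60 members tested. Its probe set is of the type that the manufacturer marks as open to binding by related sequences. So are those that stood for Tomm7, Slc25a5 and Slc25a39.

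The other partner, Timm17a, had signals of 757, 837 and 849 in Ctrl and of 652, 570 and 610 at 12 m, and fell by 0.42 (SE 0.12, adjusted p = 0.00857). Timm50, the receptor that guides presequences to the channel, had signals of 160, 180 and 154 in Ctrl and of 96.3, 96.3 and 111 at 12 m, and fell by 0.70 (SE 0.15, adjusted p = 0.000836). Both genes were lower on every 12 m array than on any Ctrl array. Timm21, which links TIM23 with the TOM complex and the respiratory chain, was dim and rose, from 38.5, 41.6 and 40.3 in Ctrl to 68.5, 74.1 and 82.8 at 12 m (0.90, SE 0.16, adjusted p = 0.000243). Timm44, which tethers the import motor to the channel, had signals of 254, 244 and 250 in Ctrl and of 278, 290 and 289 at 12 m, and its change of 0.20 did not pass.

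Both TIM22 genes tested fell at 12 m, beside 31.6% of all genes lower, but neither call held with each array left out in turn. Against Ctrl28 neither was called, with changes of -0.35 and -0.20. Timm22, the insertion channel for carriers, had signals of 229, 231 and 196 in Ctrl and of 154, 116 and 196 at 12 m. The groups met at 196, and the change was -0.52 (SE 0.19, adjusted p = 0.031). It did not pass without 12 m array 1 or 2, or without Ctrl array 1 or 2 (-0.33 to -0.53), and without 12 m array 3 it was -0.705 (adjusted p = 0.00823). Timm29, a subunit of the same complex, fell by 0.35, and it did not pass without 12 m array 3 (-0.23, adjusted p = 0.20).

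Of 6 small Tim genes, which encode chaperones of the intermembrane space, 5 fell at 12 m and none rose. Of all genes, 31.6% were lower and 21.7% higher. Against Ctrl28, 2 of the 6 fell, while 8.3% of all genes were lower. Timm10 had signals of 609, 847 and 777 in Ctrl and of 474, 424 and 366 at 12 m, and fell by 0.81 (SE 0.20, adjusted p = 0.00273). Timm8b had signals of 947, 1109 and 1203 in Ctrl and of 731, 710 and 641 at 12 m, and fell by 0.64 (SE 0.25, adjusted p = 0.0399). Neither gene overlapped between the groups. Timm8b did not pass when any single 12 m array, or Ctrl array 2 or 3, was left out (-0.56 to -0.68). Timm10b fell by 0.95, Timm13 by 0.84 and Timm8a1 by 0.60, with adjusted p of 0.00366, 0.00117 and 0.00981. Timm9, which works with Timm10, had a change of 0.31 that did not pass. Its second, dimmer probe set had a log2 change of 1.95, from a mean signal of 26.6 in Ctrl to 93 at 12 m, so its probe sets differ in size. Timmdc1, an assembly factor of complex I that shares the Timm name, had a change of -0.02.

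**Figure D3:**
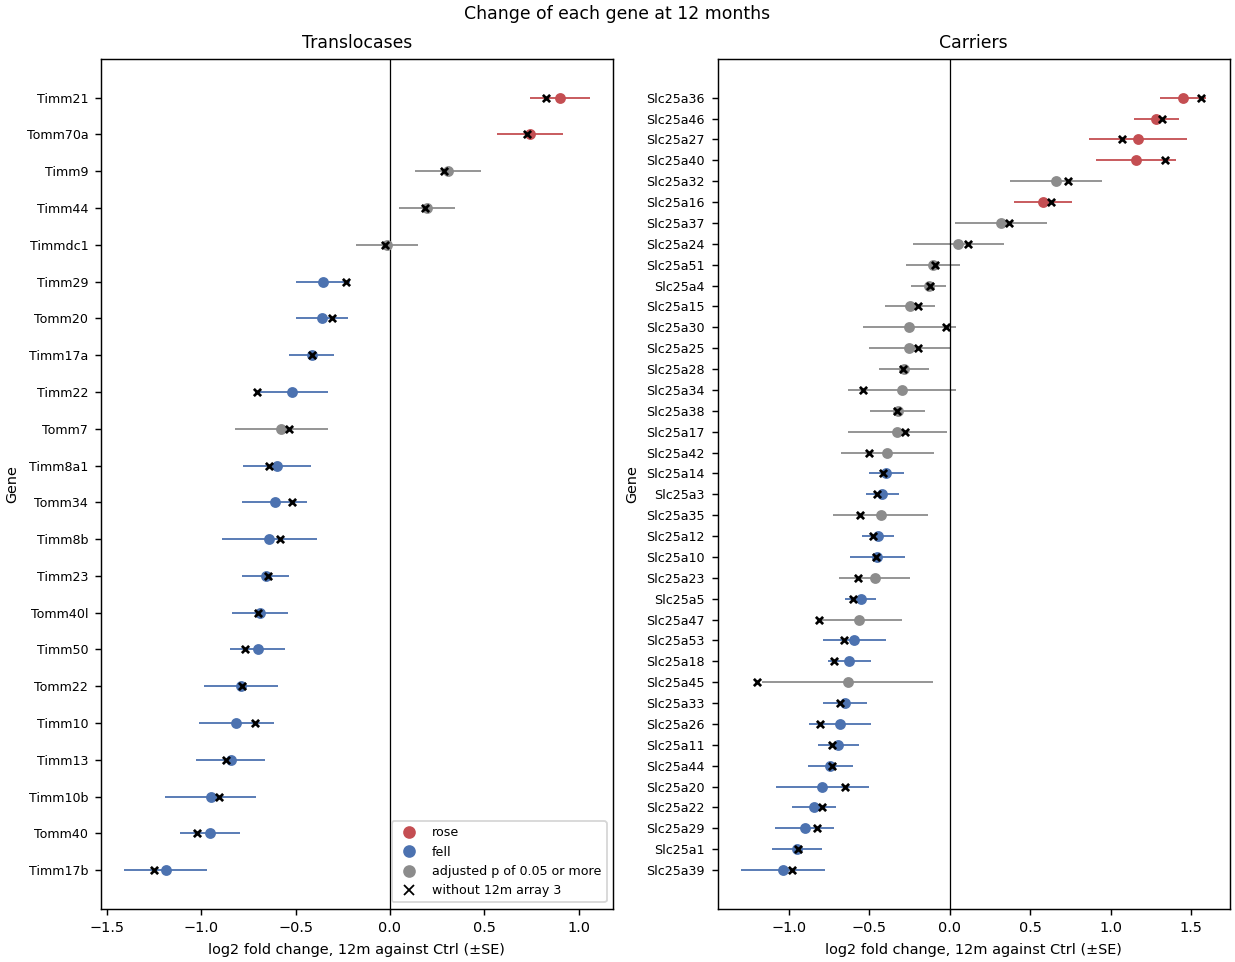
Log2 change at 12 m against Ctrl (horizontal axis) of each gene tested (vertical axis, sorted), with points for the fit of all arrays, bars for its SE and crosses for the fit without 12 m array 3. Translocases (left) lie mostly below 0, from -1.19 for Timm17b to 0.90 for Timm21, and carriers (right) span -1.03 for Slc25a39 to 1.45 for Slc25a36.

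The carriers at 12 m are taken by what they carry. All 4 carriers of carboxylates and of the redox shuttles that were tested fell, while 31.6% of all genes were lower and 21.7% higher. Against Ctrl28 none of the 4 was called, and their median change was 0.11. Slc25a1, which exports citrate, had signals of 202, 257 and 215 in Ctrl and of 115, 117 and 115 at 12 m, and fell by 0.95 (SE 0.16, adjusted p = 0.00015). Slc25a11, which exchanges malate for oxoglutarate, had signals of 604, 717 and 646 in Ctrl and of 398, 389 and 429 at 12 m, and fell by 0.69 (SE 0.13, adjusted p = 0.000386). These groups were well apart for both genes. Slc25a12, the aspartate and glutamate exchanger of neurons, had signals of 885, 985 and 896 in Ctrl and of 635, 690 and 706 at 12 m, and fell by 0.44 (SE 0.10, adjusted p = 0.0016). Its 2 dimmer probe sets were higher at 12 m, and the mean of its probe sets changed by 0.41. Slc25a10, the dicarboxylate carrier, fell by 0.45, and it did not pass without 12 m array 3 (-0.46, adjusted p = 0.0603).

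Of 6 amino acid carriers tested, 4 fell and none rose, beside the same shares of all genes. Against Ctrl28 none of the 6 was called, and their median change was 0.21. Slc25a22, a glutamate carrier, had signals of 597, 708 and 692 in Ctrl and of 409, 360 and 346 at 12 m, and fell by 0.84 (SE 0.14, adjusted p = 0.000148). Slc25a18, the glutamate carrier found mainly in astrocytes, fell by 0.62 (SE 0.14, adjusted p = 0.00118). Slc25a29, which carries basic amino acids, fell by 0.90 (SE 0.18, adjusted p = 0.000775), with signals of 172, 230 and 205 in Ctrl and of 121, 107 and 97.0 at 12 m. Slc25a44, a carrier of branched-chain amino acids, fell by 0.74 (SE 0.14, adjusted p = 0.000432). The ornithine carrier Slc25a15 and the glycine carrier Slc25a38 did not pass.

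Of 7 carriers grouped under ATP supply, among them the coenzyme A carrier Slc25a42, 2 fell at 12 m, beside 31.6% of all genes lower. Against Ctrl28, 3 of the 7 fell, while 8.3% of all genes were lower. Slc25a3, the phosphate carrier, had signals of 5175, 6452 and 5974 in Ctrl and of 4069, 4494 and 4566 at 12 m, and fell by 0.42 (SE 0.10, adjusted p = 0.00277). The ADP/ATP carriers differed from each other. Slc25a5 had signals of 2575, 2892 and 2987 in Ctrl and of 1910, 1798 and 2051 at 12 m, and fell by 0.55 (SE 0.10, adjusted p = 0.00025). Slc25a4, the form of heart, muscle and brain, had signals of 4186, 4671 and 4851 in Ctrl and of 4007, 4393 and 4105 at 12 m. These overlapped, and the change was -0.13 (SE 0.11, adjusted p = 0.327). The difference between the 2 genes was not tested. The ATP-Mg/phosphate carriers Slc25a23, Slc25a24 and Slc25a25 and the coenzyme A carrier Slc25a42 did not pass.

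Among 10 carriers of cofactors, lipids and nucleotides, 4 fell and 3 rose, beside the same shares of all genes. Against Ctrl28, 1 of the 10 fell and 1 rose. Slc25a36, a pyrimidine nucleotide carrier, had signals of 243, 190 and 203 in Ctrl and of 599, 647 and 495 at 12 m. Every 12 m array was far above every Ctrl array, and the rise of 1.45 (SE 0.14, adjusted p = 7e-06) was the largest of all members tested. Slc25a33, the related pyrimidine nucleotide carrier, fell by 0.65 (SE 0.14, adjusted p = 0.000984). The glutathione carriers also went opposite ways. Slc25a39 had signals of 1795, 2408 and 1978 in Ctrl and of 1064, 1008 and 927 at 12 m, and fell by 1.03 (SE 0.26, adjusted p = 0.00353). Slc25a40 was dim and rose by 1.16 (SE 0.25, adjusted p = 0.00112), from 46.9, 37.6 and 36.5 to 90.7, 113 and 69.4. Slc25a16, linked to coenzyme A, rose by 0.58 (SE 0.18, adjusted p = 0.0117), and it did not pass without Ctrl array 2 (0.39). Slc25a26, which imports S-adenosylmethionine, fell by 0.68 and Slc25a20, which imports acylcarnitines, by 0.79. The latter did not pass without 12 m array 3 (-0.65, adjusted p = 0.0994).

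Of 3 uncoupling proteins tested, 1 rose and 1 fell at 12 m, beside 31.6% of all genes lower and 21.7% higher. Against Ctrl28 none of the 3 was called. Slc25a27 had signals of 23.8, 21.7 and 24.0 in Ctrl and of 35.7, 66.7 and 59.7 at 12 m, close to the minimum in Ctrl, and rose by 1.17 (SE 0.31, adjusted p = 0.00446). Slc25a14 had signals of 466, 517 and 516 in Ctrl and of 400, 349 and 392 at 12 m, and fell by 0.39 (SE 0.11, adjusted p = 0.00596). Slc25a46, an outer membrane protein that acts in mitochondrial fission and fusion rather than in transport, had signals of 418, 330 and 348 in Ctrl and of 931, 884 and 843 at 12 m. Every 12 m array was far above the highest Ctrl array, and the rise was 1.28 (SE 0.14, adjusted p = 1e-05). Its second probe set was also higher, with means of 292 in Ctrl and 651 at 12 m. Against Ctrl28 the change of Slc25a46 at 12 m was 0.32, which did not pass. The mitoferrins Slc25a28 and Slc25a37, which import iron, did not pass. Of 5 further carriers, Slc25a53 fell by 0.59 and the others did not pass, beside the same shares of all genes.

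**Figure D4:**
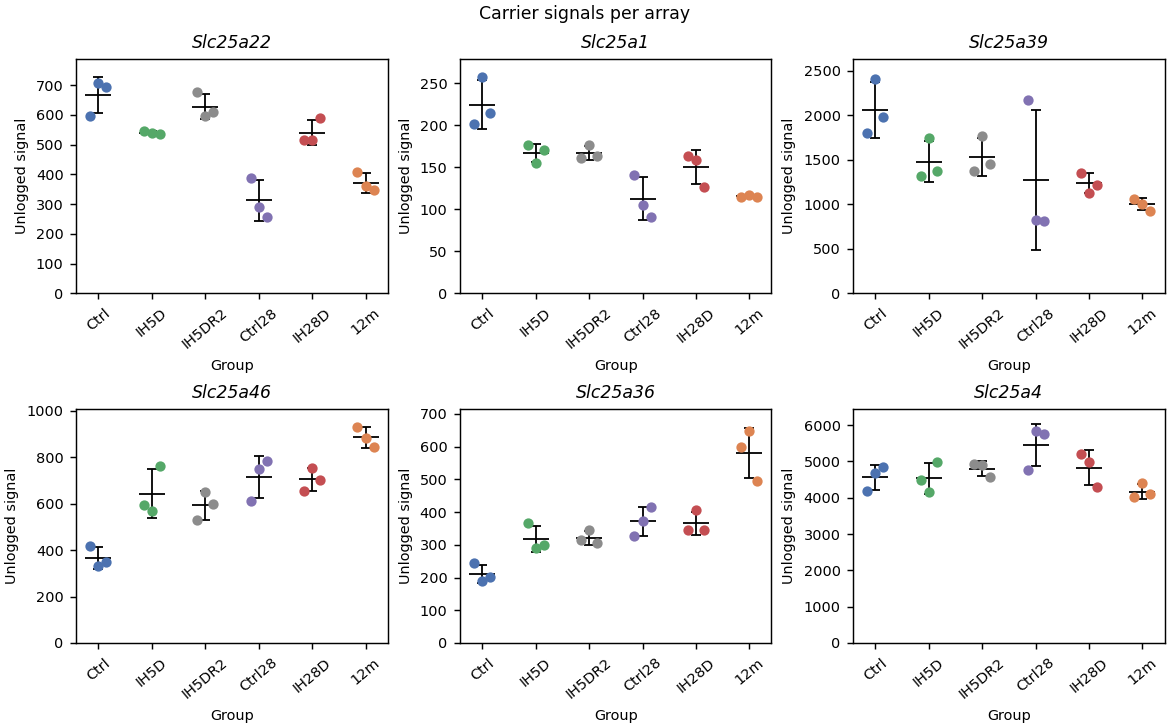
Unlogged signal (vertical axis) on each array (points) of 6 groups (horizontal axis) for 6 carriers, with the group mean (long bar) and SD (short bars, n = 3). Slc25a46 and Slc25a36 were lowest in Ctrl and highest at 12 m, Slc25a22 and Slc25a1 were low in Ctrl28 and at 12 m, and Slc25a4 overlapped between Ctrl and 12 m.

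The untreated groups Ctrl and Ctrl28 differed from each other, which bears on every 12 m and IH28D value. In Ctrl28 against Ctrl, 5 translocases fell and 1 rose, and 13 carriers fell and 6 rose. Of all genes tested, 37.8% were called, 21% lower and 16.9% higher. The Ctrl28 arrays were deposited later than the others, so any batch cannot be told apart from the group. Without Ctrl28 array 1, 11 translocases fell and 2 rose, and 16 carriers fell and 9 rose, while 29.5% of all genes were lower and 23.8% higher. With the gap between transcript ends as a term of the fit, the translocase count was 12 in place of 6, while 50.3% of all genes were called. The carrier count was 12 without Ctrl array 2 and 10 without Ctrl28 array 3, in place of 19, while 24.3% and 24.4% of all genes were called.

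Tomm40 fell the most. Its signals in Ctrl28 were 57.2, 102 and 74.6, against 306 to 314 in Ctrl. The difference was -2.03 (SE 0.16, adjusted p = 5e-07), or -1.83 without Ctrl28 array 1. Timm50 fell by 0.77, Tomm40l by 0.74, Tomm22 by 0.67 and Tomm34 by 0.51, and Timm21 rose by 0.74. Tomm22 had signals of 256, 468 and 522 in Ctrl28, all below the lowest Ctrl array (551). Its difference was -0.355 (adjusted p = 0.0291) without Ctrl28 array 1 and -0.06 (adjusted p = 0.78) with the gap as a term, and that of its second probe set was 0.004.

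Among the carriers, Slc25a22 fell by 1.11 (SE 0.14, adjusted p = 2.01e-05), with signals of 389, 290 and 258 in Ctrl28. Slc25a1 fell by 1.01, Slc25a44 by 0.93 and Slc25a10 by 0.91. Slc25a46 rose by 0.97 (SE 0.14, adjusted p = 7.28e-05), with 612, 749 and 784 in Ctrl28, and Slc25a36 by 0.81. For 12 m against Ctrl28, given above, leaving out 12 m array 3 gave counts of 1 and 1 for translocases and 2 and 1 for carriers of those that fell and rose, while 4.37% of all genes were lower and 5.46% higher. With all arrays, Tomm20 fell by 0.49, Timm10 by 0.77, Timm13 by 0.70, Slc25a5 by 0.60, Slc25a4 by 0.38, Slc25a24 by 0.93 and Slc25a26 by 0.65, and Slc25a36 rose by 0.64. Tomm40 rose by 1.08 (SE 0.16, adjusted p = 0.000697), opposite to its change against Ctrl. Of the members called against Ctrl, 9 others had a change of opposite sign against Ctrl28 that did not pass, namely Tomm40l, Timm50, Slc25a1, Slc25a10, Slc25a11, Slc25a16, Slc25a18, Slc25a22 and Slc25a44. Slc25a10 differed by 0.46 (adjusted p = 0.0753) and Slc25a18 by 0.24 (adjusted p = 0.232).

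After 28 days of IHT, 1 translocase and 5 carriers rose against Ctrl28 and none fell. Of all genes tested, 8.49% were called, 6.05% higher and 2.45% lower. Tomm40 had signals of 268, 250 and 255 in IH28D. These were all well above the highest Ctrl28 array, and the rise was 1.77 (SE 0.16, adjusted p = 1e-05), a 3.4-fold higher signal. It was 1.57 without Ctrl28 array 1 and 1.34 in a fit with the signal gap between transcript ends as a term. Against Ctrl, however, Tomm40 in IH28D differed by -0.26 (SE 0.16, adjusted p = 0.202). The low signals were those of Ctrl28.

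Slc25a22 had signals of 514, 517 and 589 in IH28D against 389, 290 and 258 in Ctrl28, with no overlap. It rose by 0.81 (SE 0.14, adjusted p = 0.00146), and against Ctrl it differed by -0.30 (adjusted p = 0.0996). Slc25a11 had signals of 515, 511 and 465 in IH28D against 292, 416 and 389 in Ctrl28, and rose by 0.46 (SE 0.13, adjusted p = 0.0352). Without Ctrl28 array 1 it did not pass (0.30, adjusted p = 0.0628). With the gap as a term its change was 0.14. Slc25a38 rose by 0.64 with signals of 107, 95.8 and 161 in IH28D against 78.7, 80.9 and 68.3, of which the highest came from a single array. Slc25a44 rose by 0.46 and the dim Slc25a42 by 0.97 (adjusted p = 0.0473 and 0.0446). Against Ctrl, Slc25a11 and Slc25a44 fell in IH28D, by 0.40 and 0.46.

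The counts in IH28D rest on few arrays. Without Ctrl28 array 1, 9 carriers rose and none fell, while 11.4% of all genes were higher and 4.19% lower. Without IH28D array 3 the carrier count was 1, while 2.98% of all genes were higher and 0.987% lower. It was 3 without any one of Ctrl28 array 2 or 3, IH28D array 1, Ctrl array 3, 12 m array 2, IH5D array 2 or 3, or IH5DR2 array 2 or 3. Of all genes, 5.88% to 7.88% were called in these fits. The translocase count was 2 without Ctrl28 array 3, with 7.07% of all genes called. With only Ctrl28 and IH28D in the fit, the carrier count was 0 and 0.3% of all genes were called. Against Ctrl in place of Ctrl28, 9 translocases fell and 2 rose, and 13 carriers fell and 4 rose, while 33.3% of all genes were called, 15.8% lower and 17.5% higher. The largest of these changes in translocases was that of Timm17b, which fell by 1.08 (SE 0.22, adjusted p = 0.0026).

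**Figure D5:**
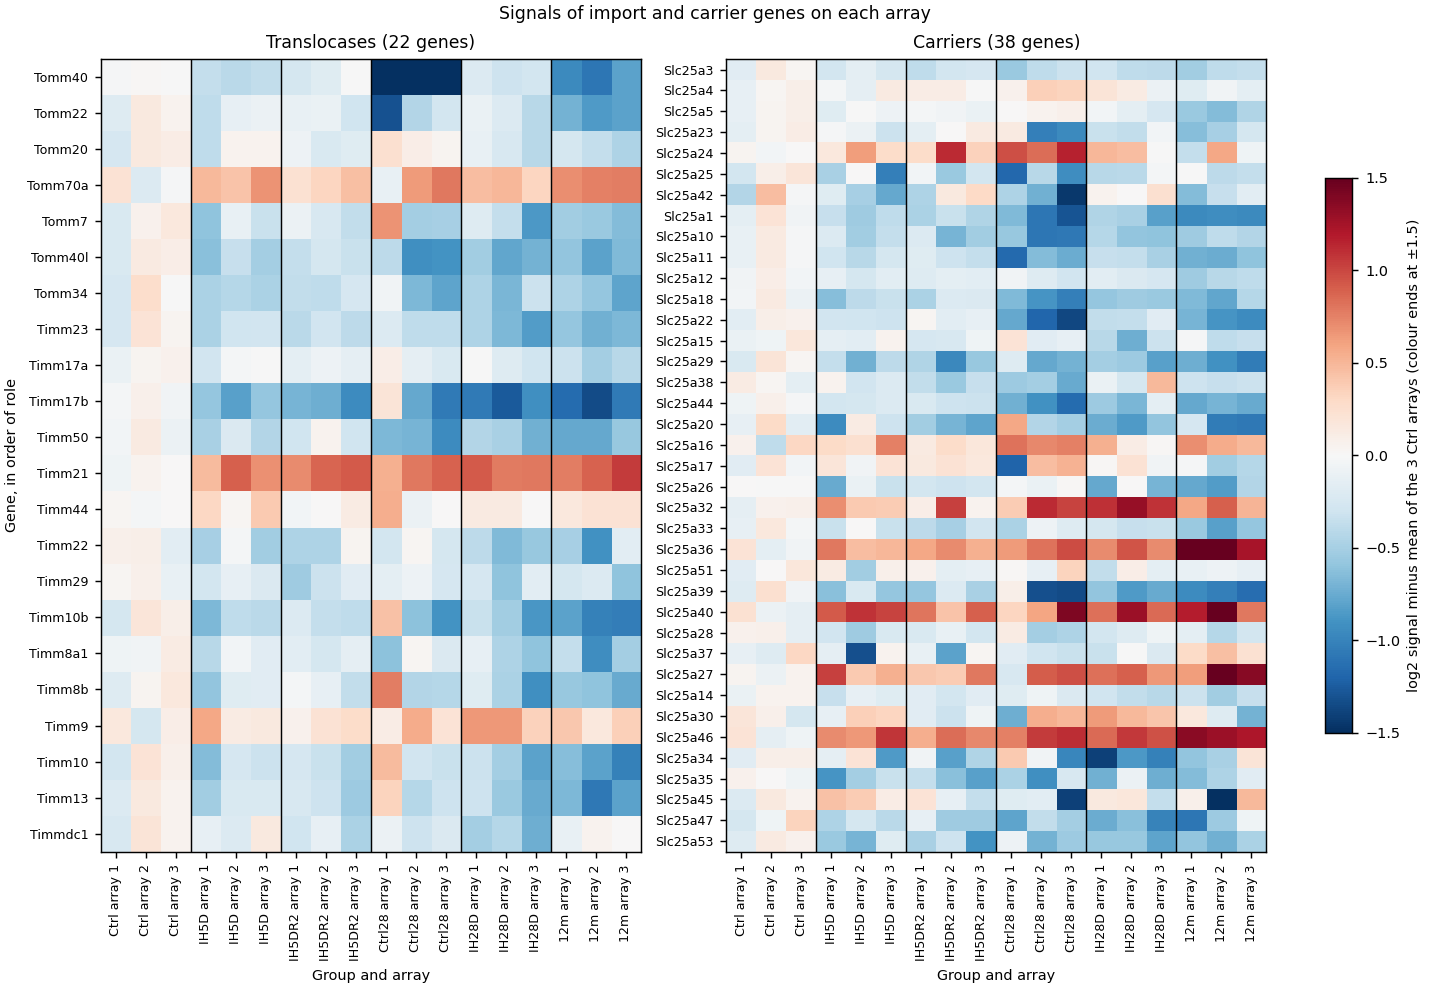
Log2 signal minus the mean of the 3 Ctrl arrays (colour, red higher and blue lower, ending at 1.5) for each array (horizontal axis, in order of group) and each gene tested (vertical axis, in order of role), with 22 translocases on the left and 38 carriers on the right. Tomm40 is bluest on the Ctrl28 arrays, and Timm21, Slc25a36, Slc25a40 and Slc25a46 are red on the arrays of every group but Ctrl.

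The change over 28 days was set against that over 5 days by an interaction term, IH28D against Ctrl28 minus IH5D against Ctrl. It was positive for 1 translocase and 6 carriers and negative for 2 carriers, while 9.65% of all genes were called, 6.57% positive and 3.08% negative. The largest was that of Tomm40, at 2.15 (SE 0.225, adjusted p = 0.000109), followed by Slc25a42 at 1.46 and Slc25a22 at 1.11. Slc25a16 and Slc25a46 were negative. Each of these genes also differed between Ctrl28 and Ctrl, with the opposite sign, and the control group and the length of treatment cannot be told apart here. The translocase count was 7 without Ctrl28 array 1 and 2 without Ctrl array 1. The carrier count of 8 became 15 without Ctrl28 array 1, 3 without Ctrl array 2, 4 without Ctrl28 array 3 or IH5D array 3, and 5 without IH28D array 3. Of all genes, 28.6% were called without Ctrl28 array 1 and 11.4% without Ctrl array 1. Without Ctrl array 2, Ctrl28 array 3, IH5D array 3 or IH28D array 3, 4.54% to 6.13% were called.

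After 5 days of IHT, few members passed. In IH5D against Ctrl, 1 translocase and 3 carriers rose and none fell, while 6.52% of all genes were called, 5.4% higher and 1.12% lower. With the replicate number as a block, the member counts did not move, and 3.72% of all genes were called, 3.23% higher and 0.489% lower. The block gave each number the same effect in all 6 groups, so it did not pair Ctrl with IH5D alone. Slc25a46 had signals of 595, 569 and 764 in IH5D against 330 to 418 in Ctrl, with no overlap, and rose by 0.81 (SE 0.14, adjusted p = 0.00899). Slc25a36 had signals of 365, 291 and 298 in IH5D against 190 to 243, and rose by 0.59 (SE 0.14, adjusted p = 0.029). The dim Timm21 and Slc25a40 rose by 0.69 and 1.01 (adjusted p = 0.0241 and 0.0292). The last 2 genes are named because they passed, after their values were seen.

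Most other members lay slightly lower without passing. Of the translocases, 18 of 22 were below 0 with a median of -0.32, and of the carriers 28 of 38 with a median of -0.22, against -0.10 over all genes and 58.6% of them below 0. Tomm40 had signals of 242, 233 and 239 in IH5D, all below Ctrl, with a change of -0.38 (adjusted p = 0.131). Tomm70a had signals of 1023, 982 and 1160, all above Ctrl, with a change of 0.53 (adjusted p = 0.0697). Timm23 had 909, 1030 and 1041, all below the lowest Ctrl array, with a change of -0.35 (adjusted p = 0.0863).

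In IH5DR2 against Ctrl, 1 translocase rose and 1 fell, and 2 carriers rose and 1 fell, while 5.61% of all genes were called, 4.38% higher and 1.24% lower. Slc25a46 had signals of 529, 652 and 598 and rose by 0.70 (SE 0.14, adjusted p = 0.0196). Slc25a36 rose by 0.61 (adjusted p = 0.027) and Timm21 by 0.84 (adjusted p = 0.0157). Timm17b had signals of 175, 171 and 148, below the 275 to 300 of Ctrl, and fell by 0.79 (adjusted p = 0.0444). Slc25a29 had 147, 103 and 135 against 172 to 230, and fell by 0.66 (adjusted p = 0.0446).

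These counts turn on single arrays, as do those of all genes. Without Ctrl array 2 or without Ctrl array 3, no member was called in IH5D or IH5DR2. Of all genes, 0% were called in IH5D in both cases, and 0% and 0.0601% in IH5DR2. In IH5D the translocase count was 0 without any one IH5D array, and the carrier count was 1, 1 and 0 without IH5D array 1, 2 and 3. Of all genes, 0.154%, 1.99% and 0.0772% were then called. In IH5D the translocase count was 4 without Ctrl array 1 or Ctrl28 array 3, with 11.4% and 8.56% of all genes called. In IH5DR2 no member was called without IH5DR2 array 2 or 3, nor was any gene (0%). The translocase count there was 1 without IH5DR2 array 1, any one IH5D array, 12 m array 1 or 2, or IH28D array 1 or 3, and the carrier count was 1 without IH5DR2 array 1. Of all genes, 0.721% were called without IH5DR2 array 1, and 3.24% to 4.09% without the others. Without Ctrl28 array 1, which enters here only through the shared estimate of the spread, 2 translocases rose and 6 fell in IH5D, and 3 carriers rose and 7 fell, while 14.2% of all genes were higher and 9.19% lower. In IH5DR2 these counts were 2 and 2 for translocases and 3 and 9 for carriers, while 13.7% of all genes were higher and 8.6% lower. With only Ctrl and IH5D in the fit, 7 translocases and 7 carriers were called, as were 18.3% of all genes. The IH5D, IH5DR2, 12 m and Ctrl28 values share the Ctrl arrays, so a member with high or low Ctrl signals moves in all of them.

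Recovery was compared directly. Between IH5DR2 and IH5D no member was called, nor was any of the 11656 genes by limma (0% called), where 418 genes and 0 members had an unadjusted p below 0.05. The methods' t-test with adjustment also called 0 members. The changes of members ran from -0.40 to 0.48. Tomm40 differed by 0.23 (SE 0.16), Slc25a22 by 0.21 (SE 0.14) and Slc25a46 by -0.11 (SE 0.14), so differences of this size could not be shown with 3 arrays per group.

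Genes of the same pathway with other names were listed as well. Of 21 tested import genes of other names (23 listed), 15 fell and 2 rose at 12 m, with a median change of -0.59, against 31.6% of all genes lower, 21.7% higher and a median of -0.23. Chchd4 and Gfer, the disulfide relay of the intermembrane space, fell by 0.85 and 0.47. Grpel1, the exchange factor of the import motor, fell by 0.87 and Oxa1l, the insertase of the inner membrane, by 0.89. The chaperonin pair split, since Hspe1 fell by 1.09 and Hspd1 rose by 0.45. Hspa9, the motor itself, changed by 0.07 and did not pass. In IH28D against Ctrl28, Oxa1l rose by 0.68 and Samm50, which builds barrel proteins into the outer membrane, fell by 0.71. Against Ctrl, Oxa1l fell in IH28D by 0.48 (adjusted p = 0.02) and Samm50 by 0.50 (adjusted p = 0.0141), and Oxa1l was 1.16 lower in Ctrl28 than in Ctrl. Against Ctrl28, Oxa1l at 12 m differed by 0.27.

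Of 16 tested channels and carriers of other names (25 listed), 9 fell and none rose at 12 m, with a median change of -0.44, beside the same shares and median of all genes. The porins Vdac1, Vdac2 and Vdac3 fell by 0.38, 0.62 and 0.50, and Mcu, the calcium uniporter, by 0.62. Mtch1, an outer membrane relative of the carriers, fell by 0.94 at 12 m and rose by 0.56 in IH28D against Ctrl28, where Vdac3 fell by 0.42. In Ctrl28, Mtch1 was 0.93 lower than in Ctrl, and it differed by -0.01 at 12 m against Ctrl28 and by -0.36 in IH28D against Ctrl (adjusted p = 0.0534), while Vdac3 fell by 0.43 in IH28D against Ctrl. In IH5D against Ctrl, 1 of these import genes fell and none of the channels was called.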

How the data were processed

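Hippocampal RNA of 18 arrays in 6 groups of 3 was analysed, grouped by the sample labels. The authors computed MAS5 signals from the probe intensities with array normalization, and log2 of these signals was deposited. They were raised to unlogged signals wherever a level, mean or minimum is given. The trimmed mean of the unlogged signals was 100.03 to 100.04 on every array, and 48% to 54.4% of the 45101 probe sets lay above 20. Probe sets of several genes or none were left out, among them those of Tomm5 and Tomm6. The number of arrays limits the precision, and no depth applies.

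The tests came from limma 3.58.1 in R 4.3.3. A single linear model over all 18 arrays, with a mean per group and a variance trend (12 residual degrees of freedom), was fitted to the 11656 genes with a mean signal above 20. It was tested on simulated data with known changes. Adjustment was that of Benjamini and Hochberg. Figures used matplotlib 3.10.9. The design had assumed unlogged signals, and the fit used log2 as deposited. The members and lists were chosen with earlier results of these data known, and no list was tested. Genes with values per array are a fixed set of 22 plus, per comparison and family, the 4 largest called changes with a mean of at least 100 in the higher group. Members outside it are named after their values were seen, and the values per array of Timm21 and Slc25a40 were added in the same way.

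Same-numbered Ctrl and IH5D arrays deviated together from their group means (r = 0.153, 0.289 and 0.239), so the numbers may pair these groups. The main fit did not use the numbers, and no fit paired Ctrl and IH5D alone. In no other comparison was every correlation above 0.1. Alternatives were another scaling, no minimum signal, the mean of all probe sets, only the compared groups, the replicate number as a block, the signal gap between transcript ends as a term, the methods' t-test (unequal variances, unlogged signals), the other control group, and leaving out each array.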

Additional observations from a re-analysis of the deposited data

Results flagged for a closer look

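The change in IH28D against Ctrl28 was set against that in IH5D against Ctrl by an interaction term in the limma fit, and the difference passed for 9 members, against 9.65% of all genes tested. It was positive for Tomm40 (2.15, SE 0.225, adjusted p = 0.000109), Slc25a42 (1.46), Slc25a22 (1.11), Slc25a1 (0.85), Slc25a11 (0.78), Slc25a18 (0.76) and Slc25a44 (0.71), and negative for Slc25a16 (-0.98) and Slc25a46 (-0.82). The changes use different control groups, and each of these genes differed between Ctrl28 and Ctrl with the opposite sign.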

How the results depend on the processing

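Counts are of members called, translocases first and carriers second, and the cause was not tested. The counts were 1 and 3 in IH5D, 2 and 3 in IH5DR2, 1 and 5 in IH28D, 18 and 21 at 12 m, 6 and 19 in Ctrl28 and 1 and 8 for the difference of IH28D and IH5D. With only the compared groups in the fit, they were 7 and 7 in IH5D, 8 for carriers in IH5DR2, 0 for carriers in IH28D, 10 for carriers in Ctrl28 and 4 for carriers in the difference, with 18.3%, 18.8%, 0.3%, 16.9% and 5.95% of all genes called. With the signal gap between transcript ends as a term they were 9 and 11 in IH5D, 4 and 10 in IH5DR2, 2 and 8 in IH28D, 12 for translocases in Ctrl28, and 9 and 15 for the difference, with 25%, 22.5%, 15.9%, 50.3% and 30.3% of all genes called. The methods' t-test adjusted over all genes called 0 and 0 in every comparison of 2 groups except 12 m, where it called 5 and 5 and 13% of all genes. Unadjusted, as the methods used it, p was below 0.05 for 6 and 10 in IH5D, 3 and 13 in IH5DR2, 3 and 4 in IH28D, 16 and 20 at 12 m and 4 and 13 in Ctrl28, and for 22.2%, 21.6%, 10.2%, 45% and 24.1% of all genes. The replicate block gave each array number the same effect in all 6 groups. With it the translocase count was 1 in IH5DR2 and the carrier count 2 in IH28D, with 2.92% and 7.29% of all genes called. No other count of members moved by more than 1.5 times with the block. With no minimum signal the translocase count in IH5DR2 was 1 and the carrier count in IH28D 3, with 2.05% and 4.22% of all genes called. The carrier count in IH28D was 3 with quantile normalization and 2 with median centring, and that in IH5DR2 was 1 with the mean of all probe sets. Of all genes, 7.45%, 6.97% and 2.82% were called. Without both 12 m array 3 and Ctrl28 array 1, chosen after seeing the data, the counts were 10 and 10 in IH5D, 6 and 12 in IH5DR2, 9 for carriers in IH28D, 13 and 26 in Ctrl28 and 7 and 15 for the difference, with 27.3%, 26.6%, 18.3%, 56.1% and 32% of all genes called.

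Leaving out each array gave 0 to 8 and 0 to 10 in IH5D, 0 to 4 and 0 to 12 in IH5DR2, 1 to 2 and 1 to 9 in IH28D, 14 to 19 and 17 to 24 at 12 m, 4 to 13 and 10 to 25 in Ctrl28, 1 to 7 and 3 to 15 for the difference, and 0 for IH5DR2 against IH5D. The share of all genes called ran from 0% to 23.4% in IH5D, 0% to 22.3% in IH5DR2 and 3.96% to 15.6% in IH28D. It was 39.7% to 60.5% at 12 m, 24.3% to 53.3% in Ctrl28, 4.54% to 28.6% for the difference and 0% to 0.0172% for IH5DR2 against IH5D. Where a group was left with 2 arrays they were assumed to vary like the others.

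With Ctrl in place of Ctrl28, 11 and 17 were called in IH28D, and the signs of Tomm40 (-0.26), Slc25a11 (-0.40), Slc25a22 (-0.30) and Slc25a44 (-0.46) reversed. With Ctrl28 in place of Ctrl, 4 and 5 were called at 12 m, and Tomm40 (1.08), Tomm40l (0.046), Timm50 (0.069), Slc25a1 (0.06), Slc25a11 (0.16), Slc25a22 (0.27), Slc25a44 (0.19) and Slc25a16 (-0.19) reversed. So did Slc25a10 and Slc25a18, as given above. With the mean of all probe sets, Slc25a44 in IH28D (-0.006) and Slc25a12 at 12 m (0.41) reversed.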

Other observations

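Of 26 members with more than 1 probe set above 20, the probe sets differed in sign for 5 at 12 m against Ctrl, 7 in IH5D against Ctrl, 8 in Ctrl28 against Ctrl and 16 in IH28D against Ctrl28. For Slc25a44, which rose in IH28D, 2 of 3 probe sets were lower there, with changes from -0.37 to 0.46. For Slc25a46 and Slc25a36 all probe sets above 20 were higher at 12 m.

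The median change of the translocases on single arrays, measured against the mean of Ctrl, was -0.51, -0.66 and -0.63 at 12 m and -0.23, -0.47 and -0.59 in IH28D. In Ctrl28 it was 0.03 on array 1 and -0.34 and -0.30 on the others.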
